A study of Mus musculus with 4 samples.

Results

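The genes that code for kinesin motors and for tubulins were examined in the testicular transcriptome of mice lacking Nef-sp. Among mouse tissues, the authors detected the transcript of this exoribonuclease only in the testis. A gene was taken as a member when its symbol in the table of exon reads on the sense strand began with Kif followed by a digit or c, or with Tuba, Tubb or Tubg. By this rule 54 of 12415 listed genes were members, of 25745 features in all annotation categories of the table. They were 36 kinesin genes and 18 tubulin genes, the latter being 8 of the alpha class, 5 of the beta class and 5 of the gamma-tubulin complex. Another 11 protein-coding genes of the GENCODE vM1 annotation have symbols of this form, among them Kif7, Kif18b, Kifc5b, Tubb1, Tubb2b and Tubg2. They were not listed with exon reads on the sense strand and could not be analysed.

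Strand-specific libraries of total RNA, freed of ribosomal RNA, were made from testes of adult C57Bl/6J mice (P60, postnatal day 60), 2 from Nef-sp-/- mice (here the mutants) and 2 from Nef-sp+/- mice (the controls). The null allele lacks 23 bp and shifts the reading frame, and the control is heterozygous, so both genotypes carry this allele. The comparison asks which transcripts change when the remaining intact copy is also lost. The labels do not say whether replicates are separate animals or littermates, and the p-values measure only the spread between these samples.

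Microtubules are hollow polymers of alpha- and beta-tubulin dimers, and gamma-tubulin with its partner proteins starts new ones. Kinesins are ATP-driven motors of microtubules, of which some walk along the polymer with cargo, some slide microtubules in the spindle and some take tubulin off the ends. In the testis they serve the mitotic and meiotic spindles, the manchette that shapes the spermatid head, and the axoneme of the sperm flagellum.

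The most abundant alpha-tubulin transcripts came from Tuba3a and Tuba3b, a pair of genes on chromosome 6 whose coding sequences differed at 41 of 1353 bases and at 0 of 450 encoded residues. The 100 coding bases with the most differences between them, bases 273 to 372 from the start codon, are shown because only reads over such differences can be assigned to 1 of the pair within the coding sequence when just perfect matches are kept. The sequences are those of the build mm9, on the minus strand at chr6:125232374-125232473 for Tuba3a and on the plus strand at chr6:145567298-145567397 for Tuba3b, and capitals mark the 12 bases that differ.
Tuba3a: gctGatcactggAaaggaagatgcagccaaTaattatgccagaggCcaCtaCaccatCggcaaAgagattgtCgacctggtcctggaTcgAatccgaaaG
Tuba3b: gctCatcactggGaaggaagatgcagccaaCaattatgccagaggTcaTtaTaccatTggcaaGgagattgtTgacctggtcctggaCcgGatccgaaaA
The longest run without a difference was 155 bases, and 433 of 1304 windows of 50 bases, the length of a read, were the same in both coding sequences.

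Tubulin isotypes differ most in the acidic tail at the end of the protein, which carries the polyglutamate, polyglycine and detyrosination marks of axonemal microtubules. The last 60 coding bases of 6 tubulin genes are shown for that reason, with the stop codon in capitals. They are taken from mm9 at chr6:125228376-125228435 (minus strand, Tuba3a), chr6:121176038-121176097 (plus, Tuba8), chr1:75212197-75212256 (minus, Tuba4a), chr2:25077828-25077887 (minus, Tubb2c), chr17:35971927-35971986 (minus, Tubb5) and chr8:125945523-125945582 (plus, Tubb3).
Tuba3a: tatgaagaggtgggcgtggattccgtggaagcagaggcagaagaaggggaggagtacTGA
Tuba8: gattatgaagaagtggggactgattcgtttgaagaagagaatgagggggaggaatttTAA
Tuba4a: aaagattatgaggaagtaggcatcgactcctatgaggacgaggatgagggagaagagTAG
Tubb2c: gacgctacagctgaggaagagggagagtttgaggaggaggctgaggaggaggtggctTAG
Tubb5: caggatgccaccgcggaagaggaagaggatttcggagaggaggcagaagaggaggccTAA
Tubb3: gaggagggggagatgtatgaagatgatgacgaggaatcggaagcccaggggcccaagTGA
The end of Tuba3b was the same as that of Tuba3a over these 60 bases. The codon before the stop is tac in Tuba3a, the tyrosine codon on which the detyrosination cycle acts, while it is ttt in Tuba8 and gag in Tuba4a.

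The 4 libraries held 20659865 to 34442517 reads, of which 76.5% to 77.4% were exon reads in sense, and Nef-sp+/- replicate 2 was the deepest. Exon reads of Nef-sp, normalized for library size, were 1843 and 1693 in the controls and 407 and 497 in the mutants (log2 fold change -1.97, adjusted p = 4.12e-06 by the edgeR quasi-likelihood test (Benjamini-Hochberg adjusted)). All 10 germ cell markers looked up, from Ddx4 to Prm2, had reads in every library. The summed germ cell markers were at 344661 in Nef-sp+/- replicate 1 and between 410665 and 419102 in the other libraries. That library was the lowest of the 4 for Tnp1, Tnp2, Prm1 and Prm2, which held most of the sum. It was the highest for Ddx4, Sycp1 and Piwil1, and neither for Sycp3, Acr and Acrv1. Summed markers did not overlap between the genotypes for spermatogonia (943 and 1058 in the controls, 1076 and 1098 in the mutants), Leydig cells (17486 and 17369, 16545 and 13932), peritubular myoid cells (1305 and 1266, 1114 and 1229) and blood (232 and 213, 241 and 254). Taken gene by gene, 0 of 3, 2 of 5, 1 of 3 and 1 of 2 tested markers of these types did not overlap, against 34.5% of all genes. Of the Leydig markers, Hsd3b1, Star and Insl3 had log2 fold changes above 0 (0.15, 0.08 and 0.18). The blood markers went in opposite directions, with log2 fold changes of 0.23 for Alas2 and -0.75 for Hbb-b1. Uchl1, which overlapped, held most of the spermatogonia sum. The sums overlapped for Sertoli cells (2284 to 2429), macrophages (84.0 to 95.1) and epididymis (42.7 to 64.5). No marker gene passed the test in edgeR or DESeq2. Of 30 tested, 3 (Tnp1, Cyp11a1 and Cyp17a1) had an unadjusted p below 0.05 in edgeR, against 4.8% of all genes.

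Tubulin transcripts of the adult testis came mostly from 3 genes. Tuba3a, Tubb2c and Tuba3b together held 81.8% of the reads of the 18 tubulin and gamma-tubulin complex genes. Levels are compared between genes as normalized counts per kilobase of annotated exon, with the SD over the 4 libraries.

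Tuba3a (chromosome 6, 125228292 to 125236060, 5 exons) had the highest level per kilobase, at 24843 and 23981 in the controls and 23167 and 23787 in the mutants, and its mean of 23945 ± 692 (SD, n = 4) was number 23 among all genes of the table that could be matched to the annotation. Its twin Tuba3b (chromosome 6, 145564277 to 145569999) was at 13731 ± 573 per kilobase. The main beta-tubulin transcript was Tubb2c (chromosome 2, 25077680 to 25080222), the gene now named Tubb4b, at 16354 ± 205 per kilobase. No library of 1 of these 3 genes reached the levels of another, so that their order Tuba3a, Tubb2c, Tuba3b held in every library.

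Tuba8, an alpha-tubulin with a divergent sequence, was next at 3551 ± 316 per kilobase. Tuba4a, whose product is made without a terminal tyrosine, followed at 1463 ± 155 per kilobase, and Tuba1c at 895 ± 53.9. These 3 steps down were again larger than the spread over the libraries. Tubb6 (651 ± 25.1 per kilobase), Tubgcp2 (643 ± 6.23) and Tuba1a (566 ± 69.3) could not be ordered, since the libraries of each neighboring pair overlapped. Below them were Tubb5, a beta-tubulin of dividing cells, at 415 ± 11.4 per kilobase, Tubb3, the beta-tubulin known from neurons, at 385 ± 10.6, and Tuba1b at 312 ± 13.3. Of 17 pairs of neighbors in the order of the 18 genes, 3 overlapped.

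The genes of microtubule nucleation covered a wide range. Tubg1, gamma-tubulin itself, was at 194 ± 11.8 per kilobase, and among its complex partners Tubgcp2 was highest, followed by Tubgcp5 at 83.1 ± 1.23, Tubgcp4 at 57.1 ± 6.03 and Tubgcp3 at 16.5 ± 1.08. With the length of the longest transcript, Tubgcp4 came to 113 per kilobase, above Tubgcp5 at 83.1. Summed over each class, alpha-tubulin genes were at 44462 ± 678 per kilobase, beta-tubulin genes at 17896 ± 165 and the gamma-tubulin complex at 994 ± 12.4. The summed alpha level was 2.48 ± 0.0555 times the beta level (SD, n = 4), with 2.55 and 2.49 in the controls and 2.42 and 2.48 in the mutants. This ratio rests on Tuba3a, Tuba3b and Tubb2c, which have many stretches in common with other places of the genome, as described further on. The ratio also depends on the length used, which its SD does not cover. With the length of the longest transcript, Tubb2c came to 21369 per kilobase, while Tuba3a and Tuba3b were unchanged. Tubal3 was the only tubulin gene near 0, with 5 reads in all.

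**Figure D1:**
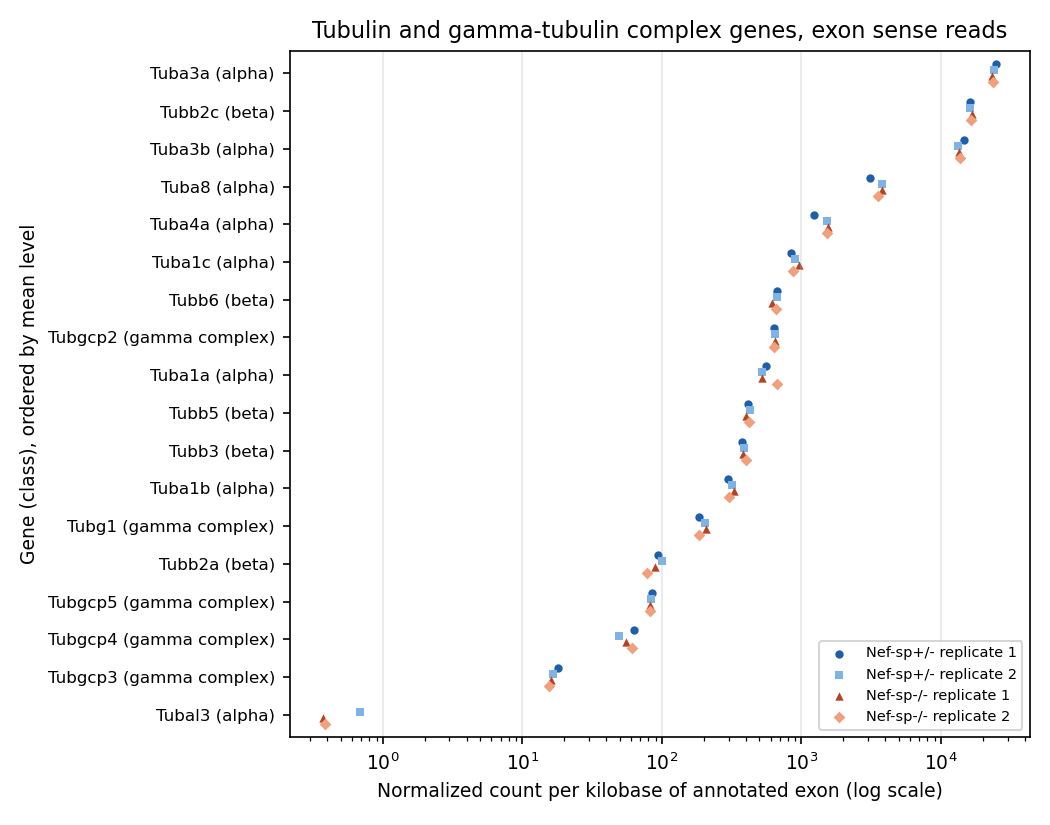
Normalized exon sense count per kilobase of annotated exon (log axis) of the 18 tubulin and gamma-tubulin complex genes, with 1 point for each of the 4 libraries; a count of 0, as for Tubal3 in Nef-sp+/- replicate 1, is not drawn. Tuba3a, Tubb2c and Tuba3b lie between 13187 and 24843, apart from all others, and Tuba8 and Tuba4a of Nef-sp+/- replicate 1 lie to the left of the other libraries.

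Among the kinesins, the depolymerases of the kinesin-13 class were the most abundant. They do not walk but remove tubulin from microtubule ends, and their 4 genes made up 54.9% of the summed kinesin level per kilobase. Kif2b (chromosome 11, 91436629 to 91438923, minus strand), a gene of 1 exon, alone held 27.9% of the kinesin reads and 45.6% of the summed level. Its levels were 10234 and 11454 per kilobase in the controls and 10530 and 10632 in the mutants. Kif2c, the centromere-associated depolymerase, was at 1632 ± 149 per kilobase (SD, n = 4), Kif2a, which acts at spindle poles and in neurons, at 476 ± 19.6, and Kif24, which acts at the mother centriole, at 86.3 ± 3.35.

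Kinesins with ciliary or transport roles came next. Kif27 (chromosome 13, 58388877 to 58456223), a relative of the Hedgehog pathway kinesin Kif7 with a role in motile cilia, was second among kinesins at 2868 ± 131 per kilobase, and its level exceeded that of Kif2c in every library. Kif9, of the flagellar kinesin-9 class, was at 1493 ± 17.3 per kilobase, while Kif6 of the same class was at 54.9 ± 2.08. In the kinesin-2 class, which drives intraflagellar transport, Kif17 was at 1476 ± 166, Kif3b at 1440 ± 25.1, Kif3a at 260 ± 3.71 and Kif3c at 0.406 ± 0.197. KIF3A and KIF3B proteins work as a heterodimer, and the Kif3b transcript was above that of Kif3a in all 4 libraries. Of Kif2c, Kif9, Kif17 and Kif3b each overlapped with the next, although Kif9 was above Kif3b in every library. This closeness depends on the length used. With the length of the longest transcript, their means were 2522, 2119, 1958 and 1440 per kilobase, in the same order.

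Spindle and cytokinesis motors differed widely in level. Kif20a, a kinesin of the central spindle, was at 613 ± 30.1 per kilobase, Kif15 at 317 ± 10.4, Kif11, the plus-end motor that pushes spindle poles apart, at 280 ± 20.6, Kif20b at 262 ± 9.38 and Kif23, of the centralspindlin complex, at 180 ± 7.30. Kif18a, which aligns chromosomes and is known to be needed in male germ cells, was at 89.6 ± 5.05 per kilobase. Of the minus-end directed kinesin-14 class, Kifc3 was at 297 ± 20.05, Kifc1 at 23.3 ± 1.96 and Kifc2 at 0.507 ± 0.259. The chromokinesins differed, with Kif22 at 126 ± 5.66 and Kif4 at 9.94 ± 1.59 per kilobase.

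Among cargo kinesins, conventional kinesin, which carries many organelles, was represented by Kif5b at 165 ± 5.53 per kilobase and by Kif5c at 54.3 ± 4.11, while Kif5a, the neuronal form, was the lowest member listed, with 0 and 2 reads in the controls and 0 and 3 in the mutants. All 7 kinesin-3 genes together reached 393 ± 5.52 per kilobase, led by Kif16b, an endosomal motor, at 194 ± 2.69. In all, 19 of the 36 kinesin genes had a mean level under 100 per kilobase and 4 a level under 1. The first count depends on the length used. With the length of the longest transcript, Kif21b, Kif18a, Kif24 and Kif1b came to 108, 135, 124 and 142 per kilobase. Of the 35 neighboring pairs in the order of kinesins by all annotated exons, 19 overlapped, among them those from Kif2c to Kif3b and from Kif15 to Kif3a. With the length of the longest transcript in place of all annotated exons, 11 of the 12 highest kinesins and 12 of the 12 highest tubulin genes were the same.

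**Figure D2:**
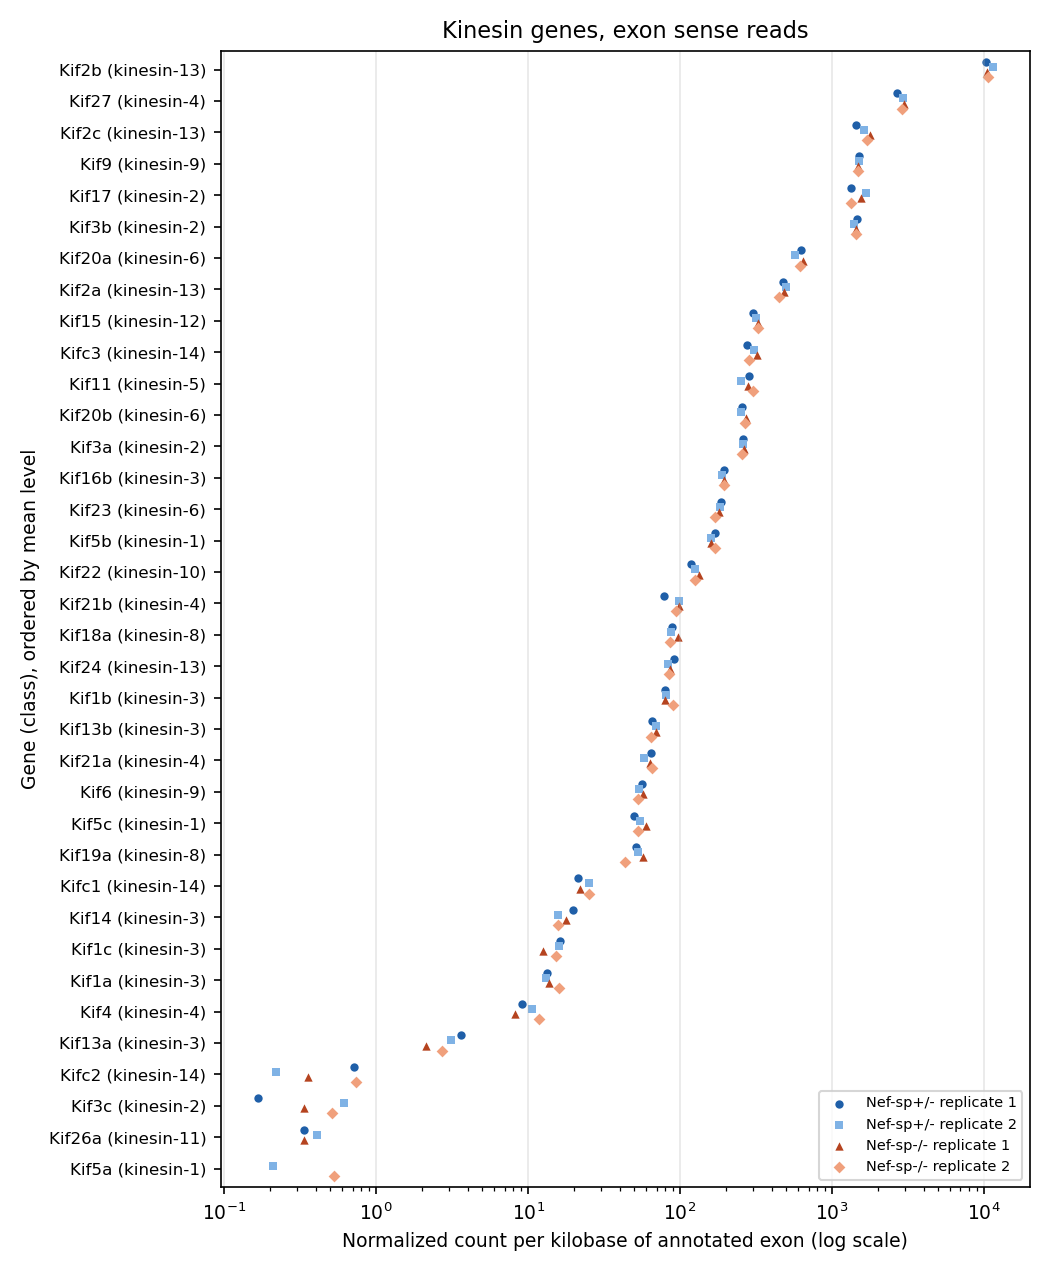
Normalized exon sense count per kilobase of annotated exon (log axis) of the 36 kinesin genes, with their class in brackets and 1 point for each of the 4 libraries; counts of 0 are not drawn. Kif2b lies near 10713, Kif27 near 2868, 4 genes between 1337 and 1780, and Kifc2, Kif3c, Kif26a and Kif5a below 1.

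No kinesin or tubulin gene passed the test between the genotypes. Of the 54 members, 49 had enough reads to be tested (32 kinesin and 17 tubulin genes), and 0 had an adjusted p below 0.05 in the edgeR quasi-likelihood test (Benjamini-Hochberg adjusted). Over all 10728 genes tested, 1 was called (0.00932%), which was Nef-sp itself. At an unadjusted p below 0.05 there was 1 member, against 4.8% of all genes. DESeq2 also called 0 members and had 1 member at an unadjusted p below 0.05. Kif26a, Kif3c, Kif5a, Kifc2 and Tubal3 had too few reads for the test.

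The differences between the genotypes were small in either direction. On the log2 scale, the median fold change of the mutants over the controls was 0.012 for the kinesin genes and 0.0099 for the tubulin genes, with -0.00022 for all genes tested. It was above 0 in 28 of 49 members, against 49.9% of all genes. In 15 of the 49 members the libraries of the genotypes did not overlap, 6 with the mutants higher and 9 with the mutants lower, against 34.5% of all genes. The 95% interval of the log2 fold change lay within 0.5 of 0 in 46 members, the others being Kif13a, Kif1c and Tubb2a.

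**Figure D3:**
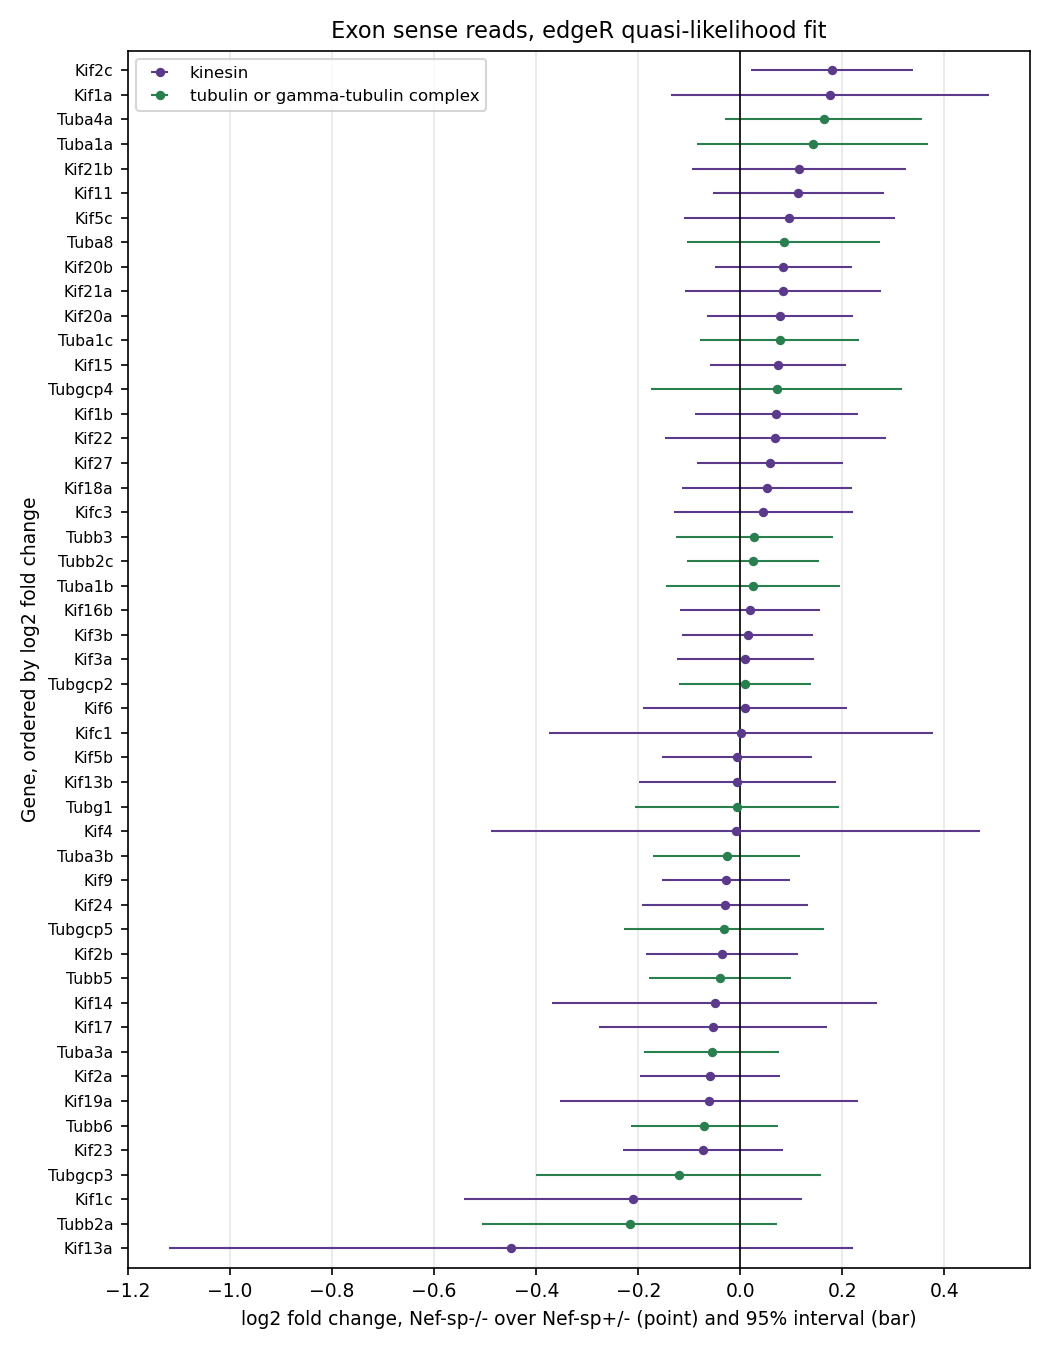
log2 fold change of exon sense reads, Nef-sp-/- over Nef-sp+/-, for the 49 members tested, with bars for the 95% interval of the edgeR fit; kinesin genes are purple and tubulin genes green. All points lie between -0.45 and 0.18, and every interval except that of Kif2c includes 0.

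The most abundant tubulin transcripts varied little over the 4 libraries, with coefficients of variation of 2.89% (Tuba3a), 1.25% (Tubb2c) and 4.17% (Tuba3b). This spread does not cover the uncertainty from stretches that all 3 genes share with other places of the genome, described further on. Normalized counts of Tuba3a were 37489 and 36188 in the controls and 34959 and 35895 in the mutants, so that both mutant libraries were lower by a small margin. Its log2 fold change was -0.06 ± 0.06 (SE), with an interval from -0.19 to 0.08. For Tuba3b, counts of 25792 and 23407 in the controls stood against 23990 and 24301 in the mutants, and the genotypes overlapped (log2 fold change -0.03 ± 0.07, SE). Since reads from the identical parts of the pair cannot be assigned to 1 gene, their sum was also taken, which was 63281 and 59594 in the controls and 58949 and 60196 in the mutants, with overlap.

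Tubb2c had 33907 and 33796 normalized counts in the controls and 34754 and 34133 in the mutants. The mutant libraries were thus both higher, by a log2 fold change of 0.03 ± 0.06 (SE) with an interval from -0.10 to 0.15. Other beta-tubulins gave log2 fold changes of -0.04 for Tubb5, 0.03 for Tubb3 and -0.07 for Tubb6. Tubb2a, a low member with 147 and 159 counts in the controls and 142 and 123 in the mutants, had the lowest log2 fold change of the tubulin genes (-0.22 ± 0.13, SE) without overlap between the genotypes, and its unadjusted p was 0.126. Of its stretches of 50 bases, 51.3% also occur in transcripts of other genes, above all Tubb2b.

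The 5 other alpha-tubulins tested had log2 fold changes above 0 under every normalization tried, without passing the test. With 1 library left out the sign turned for Tuba1a (-0.04 without Nef-sp-/- replicate 2), for Tuba1b (-0.01 without Nef-sp+/- replicate 1, -0.03 without Nef-sp-/- replicate 1) and for Tuba8 (-0.05 without Nef-sp+/- replicate 1). Tuba1a was at 924 and 852 in the controls and at 858 and 1097 in the mutants, where only Nef-sp-/- replicate 2 was high (log2 fold change 0.14 ± 0.10, SE). Tuba1b and Tuba1c gave 0.02 and 0.08. These 3 genes have 56.9%, 57.6% and 61.2% of their 50-base stretches in transcripts of other genes, mostly each other, and their single values are uncertain. For gamma-tubulin, Tubg1 had 419 and 461 counts in the controls and 465 and 415 in the mutants, and the log2 fold changes of the 5 gamma-tubulin complex genes lay between -0.12 for Tubgcp3 and 0.07 for Tubgcp4.

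Among kinesins, the highest ones differed little as well. Kif2b had 23487 and 26287 normalized counts in the controls and 24166 and 24401 in the mutants, with both mutant libraries between the controls. Kif27 was lowest in Nef-sp+/- replicate 1, at 11964, with 13116 in the other control and 13274 and 12838 in the mutants. The log2 fold changes were -0.04 ± 0.07 and 0.06 ± 0.06 (SE).

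Kif9 and Kif3b were the steadiest of the abundant motors, with a coefficient of variation of 1.16% and 1.74% over the 4 libraries. Kif9 was at 6835 and 6791 in the controls and at 6699 and 6668 in the mutants, which did not overlap, although the log2 fold change was only -0.03 ± 0.06 (SE). Kif3b was at 8236 and 7909 against 8153 and 8151 (0.01 ± 0.06, SE). Kif17, a transport motor known for carrying a transcriptional coactivator in spermatids, varied more, at 6126 and 7637 in the controls and 7154 and 6128 in the mutants, where 1 library of each genotype was low and its coefficient of variation was 11.2%. Exons of Kif17 overlap with those of Sh2d5 on the same strand.

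Spindle motors showed log2 fold changes on both sides of 0. Kif11 had 1378 and 1220 counts in the controls and 1343 and 1459 in the mutants, with overlap (0.11 ± 0.08, SE). Both mutant libraries were higher for Kif15 (1463 and 1513 in the controls, 1564 and 1570.2 in the mutants, log2 fold change 0.07) and for Kif20b (1426 and 1403, then 1519 and 1479, log2 fold change 0.08). Kif20a and Kif2a overlapped, with 0.08 and -0.06. For Kif23, the partner of the central spindle, both mutant libraries were lower (731 and 714, then 708 and 664, log2 fold change -0.07).

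Kifc3, at 1039 and 1156 in the controls and 1202 and 1070 in the mutants, overlapped (0.05 ± 0.08, SE). Kifc1, at 72.5 and 85.2 in the controls and 75.1 and 85.2 in the mutants, gave a log2 fold change of 0.00068 ± 0.17 (SE). It has 33.8% of its 50-base stretches in transcripts of other genes, mostly Kifc5b, and is therefore uncertain.

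The larger fold changes belonged to kinesins with few reads. Kif13a, a vesicle motor, had 25.3 and 21.8 normalized counts in the controls and 15.01 and 18.93 in the mutants. Both mutant libraries were lower, but the log2 fold change of -0.45 ± 0.30 (SE) had an interval from -1.12 to 0.22 and an unadjusted p of 0.171. Kif1c, of the same class, was at 115 and 113 in the controls and 88.9 and 108 in the mutants (-0.21 ± 0.15, SE, unadjusted p = 0.188), also without overlap.

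The smallest p among the members was that of Kif2c. It had 6277 and 7160.2 normalized counts in the controls and 7817 and 7418 in the mutants, so that both mutant libraries were higher and Nef-sp+/- replicate 1 was the lowest. The log2 fold change was 0.18 ± 0.07 (SE), with an unadjusted p of 0.0294 and an adjusted p of 0.954 by the edgeR quasi-likelihood test (Benjamini-Hochberg adjusted). Next in p was Tuba4a, at 2526 and 3132 in the controls and 3202 and 3151 in the mutants (log2 fold change 0.16 ± 0.09, SE, adjusted p = 0.954). Here 3 of the libraries lay together and Nef-sp+/- replicate 1 was apart from them. Tuba8 showed the same picture, at 6900 and 8431 in the controls and 8345 and 7928 in the mutants, with overlap (0.08 ± 0.09, SE).

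**Figure D4:**
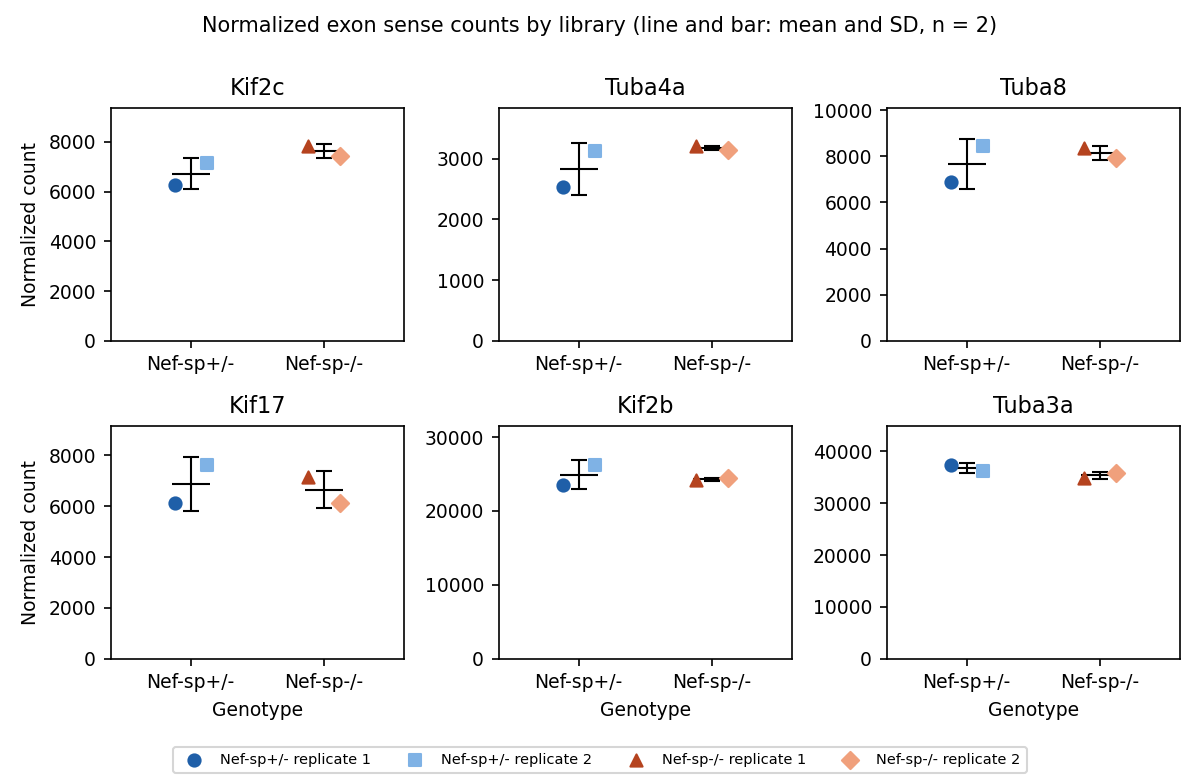
Normalized exon sense counts (linear axes from 0) of Kif2c, Tuba4a, Tuba8, Kif17, Kif2b and Tuba3a, with 1 point for each library and the mean ± SD of each genotype (n = 2). For Kif2c, Tuba4a and Tuba8, Nef-sp+/- replicate 1 is the lowest point at 6277, 2526 and 6900, while in Kif17 it stands beside Nef-sp-/- replicate 2 and in Tuba3a it is the highest point at 37489.

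These 3 genes depended on which control library was used. Without Nef-sp+/- replicate 2, the edgeR quasi-likelihood test called Kif2c (log2 fold change 0.28, adjusted p = 0.00375), Tuba4a (0.33, adjusted p = 0.00388) and Tuba8 (0.24, adjusted p = 0.0181), the remaining control being taken to vary like the mutant libraries. These were 3 of 49 members, in a fit that called 2.32% of all genes. Without Nef-sp+/- replicate 1 the log2 fold changes were 0.09, 0.02 and -0.05, and 0 members were called against 0.376% of all genes. The fit without Nef-sp+/- replicate 2 also called the nuclear proteins of elongating spermatids, with log2 fold changes of 0.29 for Tnp1, 0.31 for Tnp2, 0.24 for Prm1 and 0.36 for Prm2, and for Prm2 Nef-sp+/- replicate 1 had 96587 counts against 123192 to 130663 in the other libraries. The part of these germ cell transcripts in the values of Kif2c, Tuba4a and Tuba8 was not tested. In bulk RNA, fewer cells of a type and less RNA per cell cannot be told apart.

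Not all members were low in that library. Nef-sp+/- replicate 1 was the lowest of the 4 libraries for 16 of the 49 members (26.8% of all genes) and the highest for 14 (27.2% of all genes). The other control was over 10% above this library for 10 members, which is 20.4% of the members, against 20.4% of all genes. These members were Kif17, Kif21b, Kif2b, Kif2c, Kif4, Kifc1, Kifc3, Tuba4a, Tuba8 and Tubg1.

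As a share of all exon sense reads, the kinesin genes took 0.467% and 0.486% in the controls and 0.478% and 0.471% in the mutants, with overlap between the genotypes. The tubulin genes took 0.640% and 0.613% in the controls and 0.611% and 0.618% in the mutants, also with overlap. An exact two-sided permutation test of the libraries gave p = 1 for the kinesins and p = 0.667 for the tubulins, both 1 once adjusted by Benjamini-Hochberg over the 2 shares, and this design cannot go below 0.333. For all 4 libraries together the mean shares were 0.475% ± 0.00828 and 0.621% ± 0.0133 (SD, n = 4).

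Reads in introns were few for most members. Of the 54 members, 32 were listed with sense reads in introns, 18 could be tested and 0 were called, with 0 at an unadjusted p below 0.05 and 0 called by DESeq2. In that category 0.0294% of all features were called, which is again Nef-sp alone. Relative to 100 exon sense reads, Kif9 had 14.8 intron reads, Kif13b 14.4 and Kif2c 10.6, while Tubb2c had 0.0169, Tuba3a 0.0311 and Kif17 0.0654. Kif2c had 648 and 795 normalized intron counts in the controls and 844 and 738 in the mutants, with overlap, and as in its exons Nef-sp+/- replicate 1 was the lowest. Its intron log2 fold change was 0.13 ± 0.14 (SE). The smallest unadjusted p values in introns were 0.183 for Kif21b (log2 fold change 0.28), 0.189 for Kifc3 (-0.49) and 0.309 for Tuba1b (-0.26).

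Antisense reads also gave no call. In introns 12 members were listed, 8 tested and 0 called (0% of all features), with 0 at an unadjusted p below 0.05, and the smallest unadjusted p values were 0.125 for Tubgcp4, 0.257 for Kif22 and 0.487 for Kif15. In exons 12 members were listed, 8 tested and 0 called (0% of all features), with 1 at an unadjusted p below 0.05. DESeq2 called 0 members among the antisense reads. The exon antisense reads of Tubb2c were 706 and 759 in the controls and 866 and 811 in the mutants, so that both mutant libraries were higher. The log2 fold change was 0.19 ± 0.09 (SE), with an unadjusted p of 0.0439 and an adjusted p of 0.996 by the edgeR quasi-likelihood test. Next were Tuba1b (unadjusted p = 0.555) and Tubb6 (0.594).

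For most genes the antisense reads were a small part of the exon reads, at 2.24% ± 0.167 (SD, n = 4) in Tubb2c, 3.81% ± 0.391 in Tuba1b and 0.160% ± 0.0573 in Tuba4a. Kif3c and Kifc2 were the opposite, since 97.8% ± 1.13 and 96.6% ± 1.49 of their exon reads ran antisense. Exons of Kif3c overlap with 1110002L01Rik on the other strand, and those of Tubb2c with Fam166a. The libraries keep the strand, and reads of the sense and the antisense strand were counted apart.

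Exon sequence of several tubulin genes occurs more than once in the genome. Stretches of 50 bases with a further perfect match in the assembled chromosomes made up 86.0% of the exon stretches in Tuba1b, 73.3% in Tuba1a, 64.3% in Tuba1c, 55.8% in Tubb2a, 42.3% in Tubb2c, 37.9% in Tuba3a and 32.6% in Tuba3b. Among kinesins the highest were Kifc1 with 40.1% and Kif5b with 20.5%, and Kif2b, Kif27, Kif9 and Kif3b had 0%. How the authors counted reads with several matches is not given in the sources used here, and levels of the former genes are therefore less certain than those of the latter.

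Other genes of the microtubule system gave no call either. Of 61 genes for other tubulins and kinesins, kinesin partners, tubulin folding, tubulin modification, severing and microtubule ends, 56 were listed and tested, and 0 were called, against 0.00932% of all genes. Their median log2 fold change was -0.0033, with 27 above and 29 below 0. In edgeR 3 of the 56 had an unadjusted p below 0.05, against 4.8% of all genes. These were Svbp, Arl2 and Ttll3, the last with a log2 fold change of -0.16 ± 0.07 (SE). Of the 56 genes DESeq2 called 0, with 0 at an unadjusted p below 0.05.

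Kifap3, the cargo-binding partner of KIF3A and KIF3B, was high at 2209 normalized counts per kilobase, with 8415 and 9015 counts in the controls and 8908 and 9111 in the mutants. Cenpe, a kinesin of the kinetochore that the naming rule does not take in, was at 3010 and 2909 in the controls and 3107 and 3021 in the mutants, which did not overlap (log2 fold change 0.05 ± 0.06, SE). Of 8 tubulin folding genes the smallest unadjusted p was 0.0455 for Arl2 (-0.27 ± 0.12, SE), where both mutant libraries were lower, and Tbca had the highest level.

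Of 25 tested genes of tubulin modification, Svbp, listed as Ccdc23 and coding for the partner of the detyrosinating vasohibins, had the smallest p, at 1973 and 2102 in the controls and 2349 and 2248 in the mutants (log2 fold change 0.17 ± 0.06, SE, adjusted p = 0.954 by the edgeR quasi-likelihood test). Ttll13, a polyglutamylase, was the highest of them at 2597 normalized counts per kilobase, with a log2 fold change of -0.08 ± 0.06 (SE). Of the genes at microtubule ends, Mapre2 had a log2 fold change of 0.54 ± 0.26 (SE) at only 23.9 to 41.4 counts, and Stmn1, which binds free tubulin, was highest. In the lists of other tubulins and of kinesin partners, the smallest p belonged to Tube1, epsilon-tubulin, with a log2 fold change of -0.39 ± 0.34 (SE), and to Klc4, a kinesin light chain, with -0.07 ± 0.08 (SE). The polyglutamylase Ttll2 was picked outside the naming rules, after its values with 1 control library left out were seen. Ttll2 had counts of 158 and 249 in the controls and 253 and 225 in the mutants. Its log2 fold change was 0.19 with all libraries, 0.60 without Nef-sp+/- replicate 2 and -0.06 without Nef-sp+/- replicate 1.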

How the data were processed

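Reads of 50 bases were mapped by the authors to mm9 with in-house programs after adapter removal, and only reads without mismatch were retained. The deposited values used here are raw counts for each feature by annotation category and strand. Program versions and the handling of multiply matching reads are not given in the sources used here. The deposited table also holds the authors' mean signal, log2 fold changes and p-values from DESeq2, which were not used.

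Counts were scaled by TMM, filtered for expression (minimum count 10) and tested by the quasi-likelihood method of edgeR 4.0.16 (limma 3.58.1, R 4.3.3), for each of 4 categories (exon and intron, sense and antisense), without covariates, with Benjamini-Hochberg adjustment over the whole category at 0.05. Intervals are at 95%. For normalized counts, each library was scaled to the mean effective library size. Lengths, overlaps and sequences come from GENCODE vM1 on NCBIM37, the assembly of mm9, in which all 54 members were found once.

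Members and lists were chosen with earlier results of these data known. Named are Nef-sp, the 12 kinesin and 12 tubulin genes with the highest level per kilobase, members below the threshold or otherwise the 6 with the smallest p (3 in each other category), members with over 20% of their stretches in other genes, the lowest member, and in each related list the gene with the smallest p and that with the highest level, which for severing is not reported here. Other members are named where a class or a count is described, chosen after their values were seen, as was the related gene Ttll2. The marker lists were of germ cells, spermatogonia, Sertoli, Leydig, peritubular myoid cells, macrophages, blood and epididymis.

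The alternatives were DESeq2 1.42.0 without shrinkage, its size factors used in edgeR, total library size instead of TMM, a filter of 10 counts in each library or none, the replicate number as a block, each library left out, another denominator or filter for the shares, and another length. A block with crossed numbers was added after the data were seen. Figures were drawn with matplotlib 3.10.9.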

Additional observations from a re-analysis of the deposited data

How the results depend on the processing

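With 2 libraries of each genotype and 20659865 to 34442517 reads, small changes of low members such as Kif13a were not detectable. Kinesin and tubulin genes called stayed at 0 under every alternative except that without Nef-sp+/- replicate 2. Over the libraries left out in turn, the calls ranged from 0 to 1 for kinesins, 0 to 2 for tubulins, 0 to 1 for related genes and 1 to 252 for all genes, of which the fit without Nef-sp+/- replicate 1 called 41 and that without Nef-sp+/- replicate 2 called 252. The log2 fold changes of Kif2c, Tuba4a and Tuba8 without Nef-sp+/- replicate 2 were 0.28, 0.33 and 0.24. The median log2 fold change ranged from 0.0078 to 0.053 for kinesins and from -0.015 to 0.018 for tubulins over the libraries left out. With the library size over all categories it was -0.012 and -0.014, where the median of all genes was also lower, at -0.023. DESeq2 called 2 genes in all and 0 members. Deviations of same-numbered libraries from their genotype means had a correlation of -0.143 over exon sense genes, which are not independent. With 2 libraries of each genotype, this value cannot show whether the numbers pair the libraries. The replicate block called 1 gene in all, the same number as without it, and 0 members. With the numbers crossed, an alternative added after seeing the data, 99 genes and 0 members were called. Where no value is given beside a change, the cause was not tested.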
